A study of Mus musculus and Homo sapiens with 10 samples.

Results

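The genes described here are the human zinc finger genes with a symbol of ZNF and a number that were expressed in H1 embryonic stem (ES) cells. They were selected on their measured level. For each symbol the RefSeq entry with the highest mean was kept, and the gene was included when the mean of both libraries was at least 2 RPKM (the read count scaled to transcript length and to library size). Of 464 such symbols in the human table, 234 met this limit (50.4%), beside 10129 of all 22060 symbols (45.9%). The difference between the libraries took no part in the choice, although 11 genes reached the limit with less than 2 RPKM in the control and 10 with less than 2 RPKM in the knockdown.

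The study asked how L1 retrotransposons are controlled in ES cells of mouse and human, and 2 of its 10 samples are human RNA-seq libraries. The first came from H1 cells transduced with lentiviral hairpins against the DNA methyltransferases (DNMTs) and is named TKD here, as in the deposited table. The second came from H1 cells transduced with the empty hairpin vector and is named CTRL. Both were taken at passage 69, and cytoplasmic RNA with a poly(A) tail was sequenced. H1 is an established human line, and each group is 1 library, so no difference below has a replicate check and none was tested. Intervals given for ratios are exact 95% intervals for counting error only.

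Proteins of this family read DNA through arrays of C2H2 zinc fingers, in which cysteines and histidines hold a zinc ion. Many of them also carry a KRAB domain, which recruits the corepressor KAP1 (TRIM28), the histone methyltransferase SETDB1 and DNA methylation to the bound site. A large share of these KRAB proteins bind retroelements such as L1, and several are known for holding them silent in early embryonic cells. Other members without a KRAB domain serve as activators, chromatin partners or RNA-binding proteins.

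The libraries held 92478094 reads in TKD and 100921087 reads in CTRL. The targeted genes were lower in TKD, with DNMT1 at 28.4%, DNMT3B at 41.9% and DNMT3A at 67.9% of the control RPKM. All 7 ES cell markers were expressed in both libraries, with POU5F1 at 893 RPKM in TKD and 921 in CTRL. They did not keep equal levels. In TKD 2 of the 7 were higher and 5 lower, with sums of 1592 RPKM in TKD and 1993 in CTRL. NANOG stood at 32.6 RPKM in TKD and 17.3 in CTRL, while TDGF1, a NODAL co-receptor, stood at 144 in TKD and 418 in CTRL. Of the markers of other cells, the 4 mesoderm markers summed to 0.563 RPKM in TKD and 2.04 in CTRL. Most of this came from TBX6 (0.319 in TKD and 1.78 in CTRL). MIXL1 was also lower in TKD (0.139 in TKD and 0.241 in CTRL), while T and EOMES were under 0.1 in both and higher in TKD. The 4 endoderm markers summed to 1.28 RPKM in TKD and 0.0312 in CTRL, with FOXA2 at 1.24 in TKD and 0.00816 in CTRL. The 4 neuroectoderm markers summed to 50.2 RPKM in TKD and 33.4 in CTRL, nearly all from NES. The rest were lower in TKD: PAX6 (0.0895 in TKD and 0.107 in CTRL), SOX1 (0.0711 and 0.181) and NEUROD1 (0.00734 and 0.0303). The 4 trophectoderm markers summed to 2.92 RPKM in TKD and 11.4 in CTRL, nearly all from KRT7, and CGA was listed at 0 in both. CDX2 (0.0517 RPKM in TKD and 0.0190 in CTRL) and GATA3 (0.0247 and 0.00323) were under 0.1 in both and higher in TKD. Reads were not worked out for the markers, and the direction of values this low carries little weight. The 5 fibroblast markers summed to 154 RPKM in TKD and 94.7 in CTRL, but they did not move together. THY1 stood at 109 RPKM in TKD and 35.2 in CTRL, while COL1A1 stood at 18.2 in TKD and 22.8 in CTRL and COL1A2 at 26.1 in TKD and 36.7 in CTRL. DCN and LUM stood at 0.0201 and 0.00511 in TKD and were listed at 0 in CTRL. The part of these shifts in the zinc finger values was not tested. In such bulk RNA, fewer cells of a type and less RNA per cell cannot be told apart.

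The zinc finger genes as a group stood at nearly the same level in TKD and CTRL. Their median log2 difference, TKD minus CTRL on log2(RPKM + 0.5), was -0.02, beside 0.03 over all 10129 symbols with a mean of at least 2 RPKM. Of the 234 genes, 111 were above 0 (47.4%) and 123 below 0, beside 53.0% of all symbols above 0. The quartiles of the genes were -0.25 and 0.24, and the SD over genes was 0.44. Over all symbols the quartiles were -0.28 and 0.34, and the SD was 0.67.

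Few of the genes passed a 2-fold difference, which means a log2 difference of at least 1 in size on this scale. In TKD 2 genes were at least 2-fold higher (0.855%), beside 3.74% of all symbols. A further 6 were at least 2-fold lower (2.56%), beside 4.13% of all symbols. By plain RPKM ratio ZNF697, ZNF124, ZNF142 and ZNF35 were also above 2, and no further gene was past 2-fold lower. The gap between the 2 counts therefore depends on the added 0.5 RPKM. Shares of all symbols by plain ratio were not worked out. At 1.5-fold, 15 genes were higher (6.41%), beside 12.6% of all symbols, and 16 were lower (6.84%), beside 11.3%. The other 203 genes lay within 1.5-fold (86.8%), beside 76.1% of all symbols. The shares past either fold were thus smaller than the background in both directions. Whether this is particular to these genes was not tested. Of the genes past 1.5-fold, some met the level limit through a single library. ZNF300, ZNF239, ZNF142, ZNF35, ZNF778 and ZNF45 were under 2 RPKM in CTRL and met it through TKD. ZNF558, ZNF391, ZNF449, ZNF182 and ZNF177 were under 2 RPKM in TKD and met it through CTRL.

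**Figure D1:**
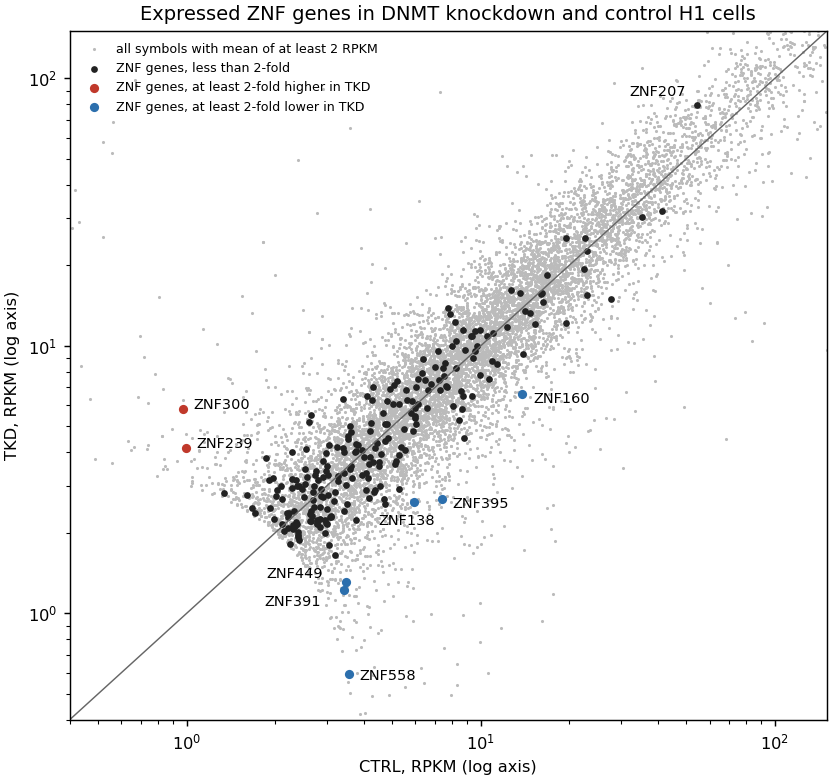
RPKM in TKD (y axis) against RPKM in CTRL (x axis), both on log axes, 1 point per gene and 1 library per axis. Black points are the ZNF genes within 2-fold, red points the 2 at least 2-fold higher in TKD and blue points the 6 at least 2-fold lower. Colours follow the log2 difference with 0.5 RPKM added. The black points of ZNF697, ZNF124, ZNF142 and ZNF35 therefore lie slightly past 2-fold on the plain RPKM axes. Grey points are all symbols with a mean of at least 2 RPKM inside the axes, and the line marks equal values.

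**Figure D2:**
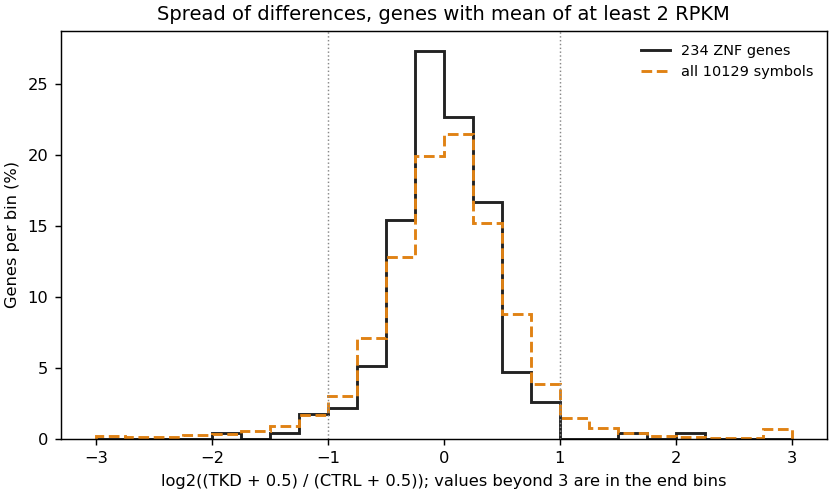
Percent of genes (y axis) per bin of 0.25 of the log2 difference between TKD and CTRL (x axis), for the 234 ZNF genes (solid) and all 10129 symbols, which include them (dashed). Dotted lines mark 2-fold. The ZNF genes have larger shares near 0 and smaller shares past 2-fold on both sides.

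The highest difference was that of ZNF300, which encodes a KRAB zinc finger protein. ZNF300 stood at 5.79 RPKM in TKD and 0.969 RPKM in CTRL, from 1757 and 321 reads, a ratio of 5.97 (5.30 to 6.75) and a log2 difference of 2.10. Its 3 RefSeq entries, which share reads, lay between 2.09 and 2.11. ZNF300 is thus among the lowest members in CTRL, and it reached the level limit only through TKD.

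The next was ZNF239, also named MOK2, a protein that binds DNA and RNA. ZNF239 stood at 4.14 RPKM in TKD and 0.994 RPKM in CTRL, from 737 and 193 reads, a ratio of 4.17 (3.55 to 4.91) and a log2 difference of 1.64. Its 4 entries lay between 1.62 and 1.66. Like ZNF300, it passed the level limit only through TKD, so a gene with its control level and no difference would not be among the 234.

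A gap followed below these genes, and the next 4 had plain ratios slightly above 2 but log2 differences below 1, since the added 0.5 RPKM understates the difference of low values. ZNF697 stood at 5.49 RPKM in TKD and 2.65 in CTRL (ratio 2.07, 1.94 to 2.21, log2 0.93). ZNF124, a KRAB protein, stood at 5.21 RPKM in TKD and 2.60 in CTRL (ratio 2.01, 1.78 to 2.26, log2 0.88). ZNF142 stood at 3.79 RPKM in TKD and 1.85 in CTRL, and ZNF35 at 2.82 in TKD and 1.34 in CTRL, with log2 differences of 0.87 and 0.85. None of these 4 reached 6 RPKM in either library.

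The genes ranked seventh to fifteenth lay between 0.60 and 0.81 on the log2 scale. They include 2 of the more abundant genes with roles in RNA biology. ZNF326, a subunit of the DBIRD complex that couples transcription and splicing, stood at 13.9 RPKM in TKD and 7.72 in CTRL (ratio 1.80, 1.70 to 1.90, log2 0.81). Its other entry gave 0.28, so the size depends on the transcript. ZNF622, a maturation factor of the large ribosomal subunit, stood at 13.1 RPKM in TKD and 7.88 in CTRL (ratio 1.67, 1.43 to 1.95, log2 0.70).

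The other genes in this range stood below 8 RPKM in both libraries. ZNF616, which encodes a KRAB protein, had a log2 difference of 0.81, from 6.33 RPKM in TKD and 3.40 in CTRL. ZNF202, a SCAN and KRAB repressor of lipid genes, stood at 7.01 RPKM in TKD and 4.31 in CTRL (log2 0.64). ZNF423, a SMAD partner in BMP signalling, stood at 6.52 RPKM in TKD and 4.12 in CTRL (log2 0.60). ZNF276 was at 0.69, ZNF778 at 0.63, ZNF552 at 0.60 and ZNF45 at 0.60 on the same scale, each below 5 RPKM in both libraries.

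**Figure D3:**
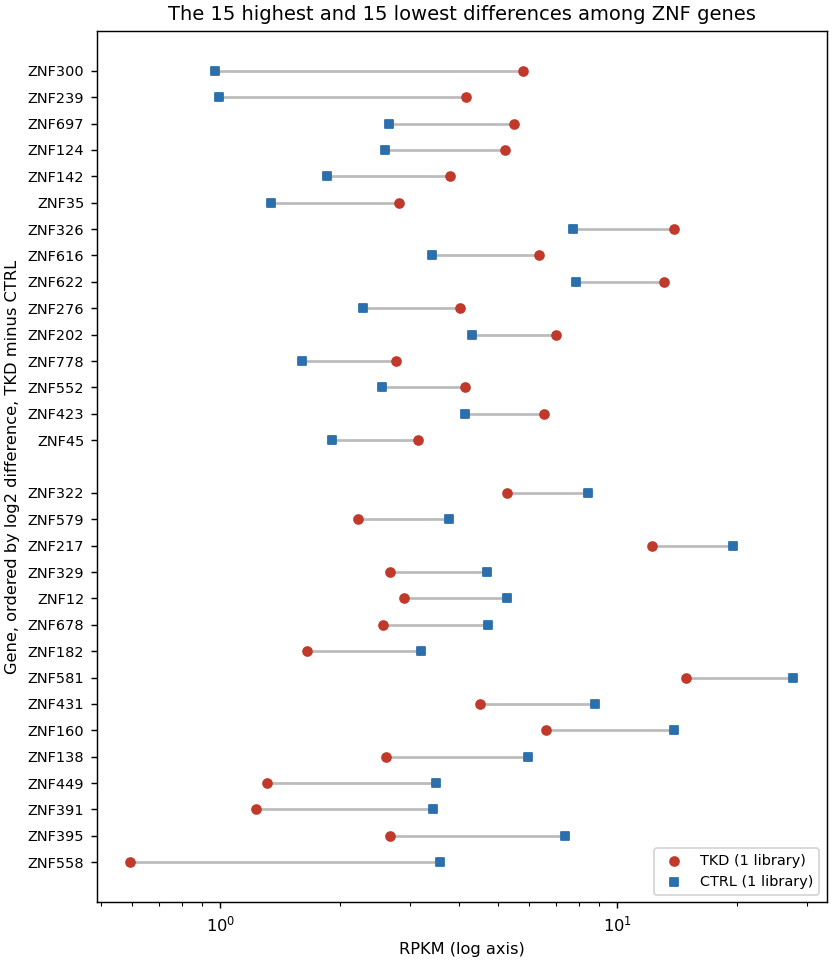
RPKM (x axis, log) in TKD (red circles) and CTRL (blue squares) of the 15 ZNF genes with the highest and the 15 with the lowest log2 difference, in order of the difference from top to bottom, 1 library each. ZNF300 and ZNF239 at the top and ZNF558 at the bottom have the widest gaps.

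The lowest difference was that of ZNF558, a KRAB protein known in human neural progenitors as a repressor of the mitophagy gene SPATA18. ZNF558 stood at 0.592 RPKM in TKD and 3.57 RPKM in CTRL, from 165 and 1085 reads, a ratio of 0.166 (0.140 to 0.196) and a log2 difference of -1.90. It is the only gene of the 234 under 1 RPKM in TKD, and it met the level limit through CTRL.

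Next came ZNF395, a factor induced by low oxygen in other cells. ZNF395 stood at 2.67 RPKM in TKD and 7.37 in CTRL, from 1189 and 3573 reads (ratio 0.363, 0.340 to 0.388, log2 -1.31). ZNF391 stood at 1.23 RPKM in TKD and 3.42 in CTRL (ratio 0.358, 0.301 to 0.425, log2 -1.18). ZNF449, which carries a SCAN domain, stood at 1.31 RPKM in TKD and 3.48 in CTRL (ratio 0.376, 0.339 to 0.417, log2 -1.14). Both of these last genes were among the 10 that reached the limit through CTRL, whereas ZNF395 was above 2 RPKM in each library.

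The last pair past 2-fold, ZNF138 and ZNF160, are both known to encode KRAB proteins. ZNF138 stood at 2.61 RPKM in TKD and 5.94 in CTRL (ratio 0.439, 0.383 to 0.502, log2 -1.05). ZNF160 stood at 6.62 RPKM in TKD and 13.9 in CTRL, from 2581 and 5899 reads (ratio 0.477, 0.456 to 0.500, log2 -1.01). ZNF160 was the most abundant of the 8 genes past 2-fold and stood closest to the threshold. The 4 of these 8 genes with several entries (ZNF300, ZNF239, ZNF138 and ZNF160) passed 2-fold in every entry.

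Just short of 2-fold on the lower side were ZNF431 and ZNF581. ZNF431, a KRAB protein, stood at 4.51 RPKM in TKD and 8.77 in CTRL (log2 -0.89). ZNF581 stood at 14.9 RPKM in TKD and 27.7 in CTRL (ratio 0.538, 0.507 to 0.570, log2 -0.87) and had the largest deficit in RPKM of all 234 genes. The range from -0.78 to -0.63 held ZNF182, ZNF678, ZNF12, ZNF329, ZNF579, ZNF217 and ZNF322. ZNF217, an oncogene product found with the CoREST and CtBP corepressors, stood at 12.2 RPKM in TKD and 19.5 in CTRL (log2 -0.65). ZNF322, whose mouse counterpart is linked to pluripotency, stood at 5.26 RPKM in TKD and 8.43 in CTRL (log2 -0.63).

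Reads that fit several near-identical genes are a limit for this family, since how they were placed and whether strand was kept is not stated in the notes and labels. Values of close paralogs such as ZNF417 and ZNF587 are therefore uncertain.

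Of 43 expressed genes in lists by known role, 0 passed 2-fold in either direction, beside 3.42% of the 234 genes and 7.87% of all symbols, shares at which a list of this size would hold few such genes. The lists were put together from general knowledge, with earlier results of these data known. Their counts are therefore descriptions, read beside the 53.0% of all symbols above 0 and the median of 0.03.

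Of 18 listed genes for retroelement-binding KRAB proteins, 10 were expressed, and 5 were above and 5 below 0, with a median of 0.04. ZNF93, known for silencing L1PA elements, stood at 8.25 RPKM in both TKD and CTRL, with 2131 and 2327 reads and a log2 difference of -0.00085. ZNF91, which binds SVA elements, stood at 3.67 RPKM in TKD and 4.53 in CTRL (log2 -0.27). ZNF649, which binds the promoter of young L1 elements, stood at 13.3 RPKM in TKD and 14.7 in CTRL (log2 -0.15), and ZNF765 at 2.38 and 1.71 (log2 0.38). These values lay on both sides of 0 without a common direction.

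The remaining expressed genes of this list spread in the same way. ZNF417 and ZNF587, close paralogs that bind HERV-K elements, stood at 3.56 and 4.26 RPKM in TKD and at 3.62 and 3.82 RPKM in CTRL. ZNF90 stood at 10.5 RPKM in TKD and 8.25 in CTRL (log2 0.33). ZNF141 (log2 0.16) and ZNF721 (0.07) were above 0, and ZNF429 (-0.36) was the lowest of the list. The other 8 listed genes were below the level limit.

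The list for pluripotency and development had 8 expressed genes of 10, and all 8 were above 0, with a median of 0.34. This count depends on which genes were listed, since ZNF322, at -0.63 and also linked to pluripotency in mouse, is not among them. ZNF207, a spindle protein that also acts in human ES cells, was the most abundant of all 234 genes, at 79.5 RPKM in TKD and 54.3 in CTRL (ratio 1.47, log2 0.55). ZNF281, a partner of core pluripotency factors, stood at 25.2 RPKM in TKD and 19.5 in CTRL (log2 0.37). ZNF398, which acts downstream of TGF-beta signalling in human ES cells, stood at 7.12 RPKM in TKD and 5.05 in CTRL (log2 0.46). ZNF143, an activator at many promoters, stood at 9.98 RPKM in TKD and 7.97 in CTRL (log2 0.31). ZNF521 (0.26), ZNF589 (0.16) and ZNF462 (0.04) were closer to 0, and ZNF423 was given above. NANOG was higher and SOX2 lower in the same library, at 32.6 and 66.4 RPKM in TKD against 17.3 and 107 in CTRL.

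Of 12 chromatin partners and imprinting factors, 11 were expressed, with a median of -0.12, 5 above and 6 below 0. ZNF445, a guardian of imprinted genes, stood at 2.85 RPKM in TKD and 3.20 in CTRL (log2 -0.14). ZNF644, a partner of the methyltransferases G9a and GLP, stood at 9.29 RPKM in TKD and 13.9 in CTRL (log2 -0.56). ZNF592, ZNF687 and ZNF532, which form one complex with ZMYND8, were at 0.25, 0.01 and -0.21. ZNF410, a dedicated activator of CHD4, stood at 7.46 RPKM in TKD and 6.44 in CTRL (log2 0.20). ZNF131 was at 0.22, ZNF296 at -0.12 and ZNF827 at -0.12. The widest of this list were ZNF202 upward and ZNF217 downward.

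All 10 listed genes with roles in RNA, ribosomes or the spindle were expressed, 6 above and 4 below 0, with a median of 0.15. The spindle protein ZNF207 (log2 0.55) was counted in the list for pluripotency and development and is not among them. ZNF598, the ubiquitin ligase that senses collided ribosomes, stood at 12.2 RPKM in TKD and 8.21 in CTRL (ratio 1.49, 1.42 to 1.57, log2 0.55). ZNF593, which acts in assembly of the large ribosomal subunit, stood at 11.4 RPKM in TKD and 9.56 in CTRL (log2 0.24). ZNF638, a nuclear RNA-binding protein also tied to silencing of unintegrated retroviral DNA, stood at 22.6 RPKM in TKD and 23.0 in CTRL. Its 4 entries ran from -0.02 to 0.21 on the log2 scale. ZNF346, which binds double-stranded RNA, was the lowest of the list at -0.23. ZNF706 (0.13) and ZNF830 (0.17) were above 0, and ZNF330 (-0.03) and ZNF318 (-0.05) were slightly below. The list as a whole thus lay on both sides of 0.

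Of 6 genes listed as broad activators 4 were expressed, and all 4 were above 0, between 0.08 (ZNF76) and 0.42 (ZNF335). This count depends on which genes were listed, and the label was not checked for each gene. ZNF24 stood at 16.2 RPKM in TKD and 12.7 in CTRL (log2 0.34), and ZNF263 at 7.53 in TKD and 6.14 in CTRL (log2 0.27). Both cancer-testis genes of the last list, ZNF165 and ZNF645, were under the limit, with ZNF165 at 1.58 RPKM in TKD and 1.64 in CTRL and ZNF645 listed at 0 in both.

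**Figure D4:**
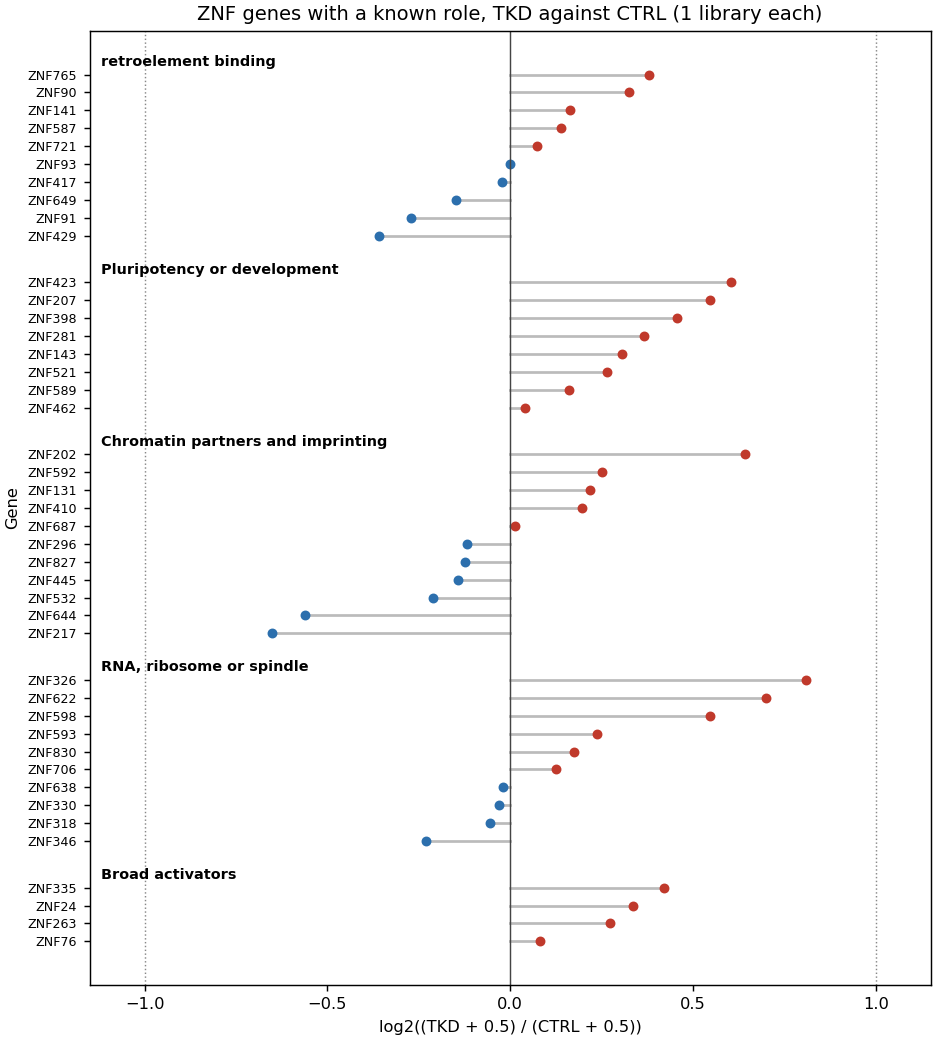
Log2 difference between TKD and CTRL on log2(RPKM + 0.5) (x axis) for the 43 expressed ZNF genes of the role lists, grouped by list (y axis), red above 0 and blue below. Dotted lines at -1 and 1 mark 2-fold, which no gene reaches. The 8 genes listed for pluripotency or development and the 4 listed as broad activators lie to the right of 0, and ZNF322, at -0.63, is in no list.

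The level of these genes was low next to other expressed genes. Their median of mean RPKM was 4.01, beside 8.61 over all symbols above the limit. In all, 145 of the 234 were under 5 RPKM, 32 reached 10 RPKM and 8 reached 20 RPKM. After ZNF207, the most abundant were ZNF146 at 31.8 RPKM in TKD and 41.4 in CTRL, ZNF532 at 30.4 and 35.3, ZNF589 at 25.3 and 22.5, ZNF638, ZNF281 and ZNF581. ZNF22 (19.4 RPKM in TKD and 22.4 in CTRL), ZNF219 (15.4 and 23.0) and ZNF259, also named ZPR1 (18.4 and 16.8), completed the 10 highest. With 1 library each, the order of neighbours such as ZNF589 and ZNF638 has no replicate check.

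The narrower spread was seen in each range of level. Among genes from 2 to 3 RPKM the SD of the log2 difference was 0.47 over 77 ZNF genes, beside 0.75 over all 1260 symbols in that range. It was 0.47 beside 0.66 from 3 to 5 RPKM, 0.37 beside 0.71 from 5 to 10 RPKM and 0.43 beside 0.61 at 10 RPKM and over. The shares past 2-fold were 5.19%, 2.94%, 1.75% and 3.12% of the ZNF genes in these ranges, beside 12.5%, 9.44%, 8.22% and 5.77% of all symbols. Across the 234 genes the size of the difference had a Spearman rho of -0.03 with the level, given as a description, since all values come from the same pair of libraries.

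**Figure D5:**
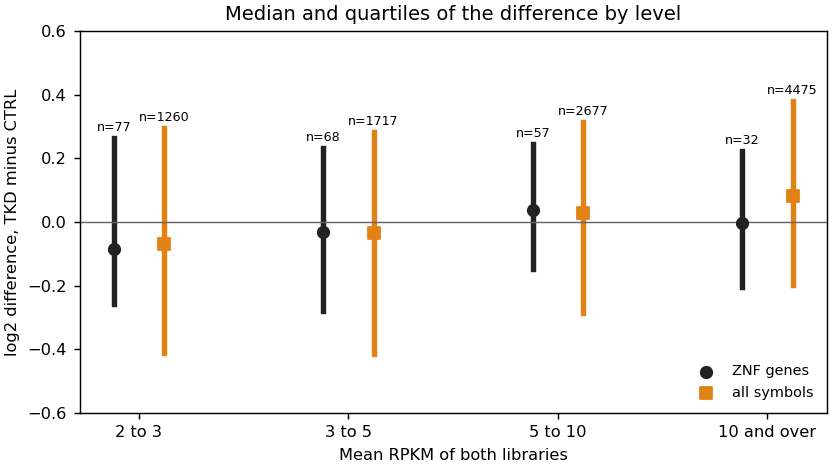
Median (points) and quartiles (bars) of the log2 difference, TKD minus CTRL (y axis), in 4 ranges of mean RPKM (x axis), for ZNF genes (black circles) and all symbols (orange squares), with the number of genes above each bar. The medians lie within 0.1 of 0 and the ZNF bars are shorter in each range.

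Counting error was small next to the spread over genes. A member had a median of 1086 reads in TKD and 1234.5 in CTRL, and no member had fewer than 112 reads in a library. The median distance from the ratio to its bound was 0.12 on the log2 scale and the widest was 0.37. For 86 genes the interval lay above 1 and for 93 below 1, which says only that these 2 libraries differed by more than counting error. Intervals were not worked out for all symbols, so these counts have no background share and describe no trait of the zinc finger genes. Variation between cultures is not in these intervals.

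At the limit itself, the genes just inside were ZNF510, at 1.82 RPKM in TKD and 2.25 in CTRL, ZNF765, given above, and ZNF610, at 2.48 in TKD and 1.67 in CTRL. The symbols just outside were ZNF841, at 1.58 RPKM in TKD and 2.40 in CTRL, ZNF500, at 2.30 and 1.67, and ZNF415, at 1.69 and 2.25. Of the 234 genes, 229 were represented by a coding entry (NM), 4 by a non-coding one (NR) and 1 by a predicted one (XM), and the 5 of these last kinds were within 2-fold. Among the 76 genes with several entries, the log2 difference varied over entries by a median of 0.02. It varied most for ZNF655, whose 8 entries ran from -0.13 to 0.46, and in 4 genes the entries lay on both sides of 0.

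Related zinc finger families were set beside these genes. Of 16 expressed genes with ZNF, a number and a letter, 0 were at least 2-fold higher in TKD and 2 lower (ZNF204P and ZNF75D), with a median of -0.10. Of 11 expressed ZFP genes 1 was higher, namely ZFP57, the KRAB protein that protects methylation at imprinted loci, at 4.98 RPKM in TKD and 0.159 in CTRL. ZFP57 passed the level limit only through TKD. Of 10 expressed ZSCAN genes 1 was higher (ZSCAN2), of 4 ZKSCAN genes 0 passed, and of 27 ZBTB genes 1 was lower (ZBTB18). The medians were 0.20 for ZFP, 0.14 for ZSCAN, -0.08 for ZKSCAN and 0.07 for ZBTB genes. Over all symbols, 3.74% were at least 2-fold higher and 4.13% lower in TKD, shares at which families this small would hold few such genes. The counts therefore set no family apart, and no difference from the 234 genes was tested.

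The corepressor genes through which KRAB proteins act were listed as well. Of 20 listed genes 19 were measured, all above 2 RPKM, and 0 passed 2-fold, beside 7.87% of all symbols, a share too low for this count to set so short a list apart. Of these, 11 were above and 8 below 0, with a median of 0.14. KAP1 (TRIM28) stood at 233 RPKM in TKD and 182 in CTRL (log2 0.35), and SETDB1 at 8.65 in TKD and 9.70 in CTRL (log2 -0.16). The widest differences were those of CBX5, a heterochromatin protein, at 12.4 RPKM in TKD and 23.5 in CTRL (log2 -0.89), and HDAC1, a histone deacetylase, at 33.0 and 54.8 (log2 -0.72).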

How the data were processed

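Per the submitters' processing notes, Bowtie 0.12.5 and the build hg19 were used. The authors deposited RPKM values for RefSeq entries and for single L1 copies of 2 human libraries, matched to samples by column name. Annotation release, strand and placement of reads with several positions are not stated in the notes and labels. The highest entry per symbol was kept at a mean of at least 2 RPKM, and differences are log2((TKD + 0.5)/(CTRL + 0.5)). The genes and lists were chosen with earlier results of these data known.

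Library totals were found as the numbers that make the reads of all 9840 L1 copies whole within 0.01. With these totals, the smallest entry length from 50 bp that gave whole reads in both libraries within 0.0005 was taken, which was found for all 234 genes. It can be a fraction of the true length, and reads are then understated and intervals too wide. Ratio intervals are exact binomial (scipy 1.17.1, Python 3.11.15) and cover counting error only. The recovery and the folds were checked on simulated data. Named genes were the 15 highest, the 15 lowest, the 10 most abundant, those of the role lists, those next to the limit and related families past 2-fold. No comparison by protein class, genome position or promoter sequence was made, and domains and roles named in the text are general background.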

Additional observations from a re-analysis of the deposited data

How the results depend on the processing

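Each group is 1 library, so no value has a replicate check. No paired analysis was possible because the human groups hold 1 library each. The 2 genes at least 2-fold higher and the 6 lower in TKD became 4 and 6 with a pseudocount of 0.1 (ZNF697 and ZNF35 joined) and 2 and 2 with a pseudocount of 1 (only ZNF300, ZNF239, ZNF558 and ZNF395 remained). At a mean of at least 1 RPKM they were 4 and 7 of 334 genes, at 5 RPKM 0 and 2 of 89, and with no filter 4 and 8 of 464. At 1.5-fold they were 15 and 16, and at 3-fold 2 and 1. Of these settings, shares over all symbols were worked out only for the main 2-fold and 1.5-fold counts. The others have no background and describe no trait of the zinc finger genes. The counts stayed at 2 and 6 with the mean of all entries, after centring (a shift of 0.03), after scaling by a trimmed mean of M values and where the counting interval also had to leave out 1. The median stayed between -0.055 and 0.036 over 8 alternatives. Of 288 values of 72 named genes under 4 alternatives, 287 kept their sign, and the exception was under 0.02 in size.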

Other observations

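Below the level limit, 4 ZNF genes with at least 1 RPKM in a library were at least 2-fold apart on log2(RPKM + 0.5), and they were picked after their values were seen. Other genes below the limit passed 2-fold only as plain ratios. Among them were ZNF516 (0.871 RPKM in TKD and 2.06 in CTRL), ZNF382 (0.535 and 1.40) and ZNF483 (1.45 and 0.636). ZNF562 stood at 2.99 RPKM in TKD and 0.584 in CTRL, from 1605 and 342 reads. ZNF560 stood at 1.93 RPKM in TKD and 0.163 in CTRL, from 499 and 46 reads. ZNF57 stood at 0.198 RPKM in TKD and 1.95 in CTRL, and ZNF77 at 0.242 and 1.59. With log2 differences of 1.69, 1.87, -1.81 and -1.50, these 4 genes differed more than any of the 234 except ZNF300, ZNF558 and ZNF239. Of these 4 genes only ZNF562 reached 2 RPKM in a library. The mean limit thus left out these 4, while it kept others under 2 RPKM in 1 library, such as ZNF300 and ZNF558.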
